A study of Mus musculus with 12 samples.

Results

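The genes described here are 40 genes of mitosis and cytokinesis, fixed by symbol and found by their Ensembl identifiers among the 55536 features of the count table. They were followed by genotype, stimulation and mouse in 12 RNA-seq libraries of splenic B cells. Control mice carried a Cre recombinase allele active in the B lineage, and Pdap1-deficient mice carried the same allele together with floxed *Pdap1*. Cre was thus present in every mouse, and exon 2 of *Pdap1* is removed only in cells in which that Cre is active. B cells from 3 C57BL/6 mice per genotype were split into a culture with LPS and IL-4, where cells switch to IgG1, and a culture with LPS, BAFF and TGFβ, where they switch to IgG2b. Both were harvested after 48 h and are called LPS-IL-4 and LPS-BAFF-TGFβ here, and by the description of the series a mouse number marks the same animal in both cultures. In control cells the libraries do not bear this out for every number: deviations from the group mean correlated at 0.55 between the cultures of mouse 2 but at -0.31 and -0.25 for mice 1 and 3, against 0.40 and 0.62 for number 1 with 3 and 3 with 1, so paired values of control mice rest on the labels. The age of these 6 mice is not given in the sources used here beyond a range for all mice of the study. The labels also name CH12, a B lymphoma line, for every library, although they describe cultured splenocytes of numbered mice.

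Entry into mitosis is driven by the kinase CDK1 bound to A- and B-type cyclins and released from inhibition by CDC25 phosphatases. Polo and Aurora kinases then organise the spindle, the kinetochore links chromosomes to microtubules, and the spindle checkpoint (Bub and Mad proteins) holds back the anaphase-promoting complex (APC/C) until every chromosome is attached. Cdc20 and Ube2c work with APC/C to trigger destruction of cyclin B and securin (*Pttg1*), after which the central spindle and the actomyosin ring divide the cell. Most of these transcripts rise in G2 and M phase of each cycle, and B cells divide rapidly after LPS. In bulk RNA, fewer cells in these phases and less RNA per such cell cannot be told apart.

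The libraries held between 4579793 and 69500640 counts. The deepest was the LPS-BAFF-TGFβ library of control mouse 1, and the next deepest held 15869143. *Pdap1* stood at 92.8, 91.2 and 97.6 CPM (counts scaled to TMM library totals, so that libraries of unequal depth compare) in control and 23.3, 27.2 and 29.9 CPM in Pdap1-deficient LPS-IL-4 cultures (log2 fold change -1.82 ± 0.11 (SE), adjusted p = 3.52e-05). With LPS-BAFF-TGFβ it stood at 198, 80.1 and 100 CPM in control and at 26.4, 25.9 and 22.9 CPM in Pdap1-deficient mice, and although the groups did not overlap the difference missed the threshold (log2 fold change -2.33 ± 0.36, adjusted p = 0.093), the control mouse 1 library being the one at 198 CPM. The summed level of 8 B cell markers was between 2524 and 3694 CPM. In Pdap1-deficient mouse 2 the summed level of 10 myeloid markers was 336 CPM with LPS-IL-4 and 564 CPM with LPS-BAFF-TGFβ. The other Pdap1-deficient libraries held 6.99 and 34.4 CPM with LPS-IL-4 and 11.9 and 79.0 CPM with LPS-BAFF-TGFβ. Control libraries held 5.21 to 13.8 CPM and 16.5 to 24.9 CPM, so a further Pdap1-deficient library per stimulation lay above all controls. Pdap1-deficient mouse 2 also held the highest sum of 11 T cell markers in each stimulation, at 33.5 and 17.3 CPM, against 1.48 to 15.04 CPM elsewhere. The sum of 6 NK cell markers was at most 5.33 CPM and that of 8 erythroid markers 9.34 to 25.5 CPM. The granulocyte gene *Elane* had no count in any library. By *Xist* above 100 CPM, 2 of 3 control and 1 of 3 Pdap1-deficient mice were female in both stimulations.

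Many promoters of the members hold sequence elements known from cell cycle genes. A CHR element (cell cycle genes homology region, TTTGAA or TTCGAA on either strand) is bound by MuvB complexes and a CCAAT box (CCAAT on either strand) by NF-Y, and the letters of both can share a base where they adjoin. RefSeq promoters (GRCm38.p6) were in the table used here for 32 of the 40 members, and those of *Foxm1*, *Smc4*, *Incenp*, *Aurkb*, *Kif20a*, *Tpx2*, *Cdc25c* and *Ccna2* were not used. The window ran from 250 bases before to 30 bases after the start, taking 1 start per gene. For members this was the start nearest the annotated gene start. For all genes it was the start with the lowest coordinate, so the shares rest on unlike choices of start. A CHR match was held by 22 of these 32 (68.8%) against 18.6% of 27025 promoters. A CCAAT box was found in 25 of 32 (78.1%) against 36.4%, and both in 20 of 32 (62.5%) against 6.98%. The CHR matches, 28 in all, had a median position of -21 relative to the start and the 58 CCAAT matches one of -67.5. For 6 roles, the promoter of the member with the highest mean CPM (not per length) among these 32 is shown with both kinds of match in capitals. The elements were found in a larger share of the members than of all promoters, but not in every member. A match is a description of letters and not of binding.
Mki67 (chr7:135716350-135716629, minus strand): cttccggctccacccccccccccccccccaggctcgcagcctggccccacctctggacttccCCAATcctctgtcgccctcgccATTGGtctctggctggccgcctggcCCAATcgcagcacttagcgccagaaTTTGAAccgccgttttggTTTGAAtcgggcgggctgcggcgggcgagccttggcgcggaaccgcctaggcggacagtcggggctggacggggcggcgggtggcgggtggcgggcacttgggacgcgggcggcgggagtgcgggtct
Cenpe (chr3:135212313-135212592, plus strand): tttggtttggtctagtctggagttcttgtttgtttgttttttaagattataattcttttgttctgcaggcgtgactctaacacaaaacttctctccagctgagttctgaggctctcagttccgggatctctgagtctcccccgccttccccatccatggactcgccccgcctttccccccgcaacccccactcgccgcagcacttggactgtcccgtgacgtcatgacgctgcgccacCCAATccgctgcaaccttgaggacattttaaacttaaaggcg
Bub1b (chr2:118597961-118598240, plus strand): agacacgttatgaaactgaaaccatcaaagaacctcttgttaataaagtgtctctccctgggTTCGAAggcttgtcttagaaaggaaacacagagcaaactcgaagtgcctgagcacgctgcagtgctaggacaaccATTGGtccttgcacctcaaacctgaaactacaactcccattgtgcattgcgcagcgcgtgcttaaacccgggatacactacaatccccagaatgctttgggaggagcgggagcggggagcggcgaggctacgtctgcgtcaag
Hmmr (chr11:40733408-40733687, minus strand): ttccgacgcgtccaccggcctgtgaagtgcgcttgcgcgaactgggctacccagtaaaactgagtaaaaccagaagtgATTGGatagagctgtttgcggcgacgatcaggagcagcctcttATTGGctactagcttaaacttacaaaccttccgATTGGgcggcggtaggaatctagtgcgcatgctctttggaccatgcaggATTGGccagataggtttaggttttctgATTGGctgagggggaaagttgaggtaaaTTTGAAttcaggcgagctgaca
Ccnb1 (chr13:100786457-100786736, minus strand): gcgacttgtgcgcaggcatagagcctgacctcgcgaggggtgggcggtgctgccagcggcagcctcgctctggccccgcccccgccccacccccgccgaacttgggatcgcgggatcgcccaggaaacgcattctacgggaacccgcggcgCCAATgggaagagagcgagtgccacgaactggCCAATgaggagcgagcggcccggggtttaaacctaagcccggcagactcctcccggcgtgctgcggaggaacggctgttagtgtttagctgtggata
Kif23 (chr9:61946770-61947049, minus strand): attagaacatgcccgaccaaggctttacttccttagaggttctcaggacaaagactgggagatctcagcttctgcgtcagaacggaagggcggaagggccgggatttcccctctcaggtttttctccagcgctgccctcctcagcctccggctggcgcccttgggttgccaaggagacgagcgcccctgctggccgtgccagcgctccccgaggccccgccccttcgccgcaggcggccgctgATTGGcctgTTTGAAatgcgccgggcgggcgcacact
*Mki67* held 2 CHR and 3 CCAAT matches and *Hmmr* 1 and 5. *Cenpe* and *Ccnb1* held no CHR match in this window, with 1 and 2 CCAAT matches. *Bub1b* and *Kif23* held 1 of each, which in *Kif23* lay on either side of the start, at -7 for CCAAT and 2 for CHR.

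Per length, the members spanned a wide range of levels. The condensin subunit *Smc4* was at a mean over the 12 libraries of 163 CPM per kb of exon and *Cdc20* at 87.7. Above them, *Top2a* (topoisomerase II, which untangles sister chromatids) and *Mki67* (the proliferation antigen that coats mitotic chromosomes) were highest, at 226 and 224 CPM per kb. The order of these 2 genes differed between stimulations. With LPS-IL-4 *Top2a* and *Mki67* were at 213 and 178 CPM per kb in control and at 219 and 212 in Pdap1-deficient cells. With LPS-BAFF-TGFβ they were at 228 and 252 in control and at 244 and 254 in Pdap1-deficient cells. Over all 12 libraries *Top2a* was between 1615 and 2396 CPM and *Mki67* between 1665 and 3003 CPM. The kinase gene *Cdk1* was at 40.1 CPM per kb. At the lower end were *Foxm1*, which encodes the transcription factor of the G2/M programme, at 8.91, *Cdc25c* at 6.43 and the securin gene *Pttg1* at 5.27 CPM per kb.

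*Kif11* and *Nek2* were close to 0 in every library. *Kif11*, the kinesin motor that pushes spindle poles apart (GRCm38, chromosome 19, 37376403 to 37421859), had 21 counts over the 12 libraries and at most 5 in any. *Nek2*, the centrosome kinase (chromosome 1, 191821444 to 191833050), had 7 counts and at most 2. Protein-coding neighbours were low as well. Around *Kif11*, *March5* had 3 counts, *Ide* 2 and *Hhex* 0, while *Exoc6* further along had 13744. Beside *Nek2*, *Slc30a1* had 1 count, *Rd3* 0 and *Traf5* 2, against 52615 for *Lpgat1* on the other side. These neighbours were named after their values were seen, and the part of transcription, mapping and counting in these values was not tested. Neither gene passed the filter on low counts, and the comparisons below cover the other 38 members.

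**Figure D1:**
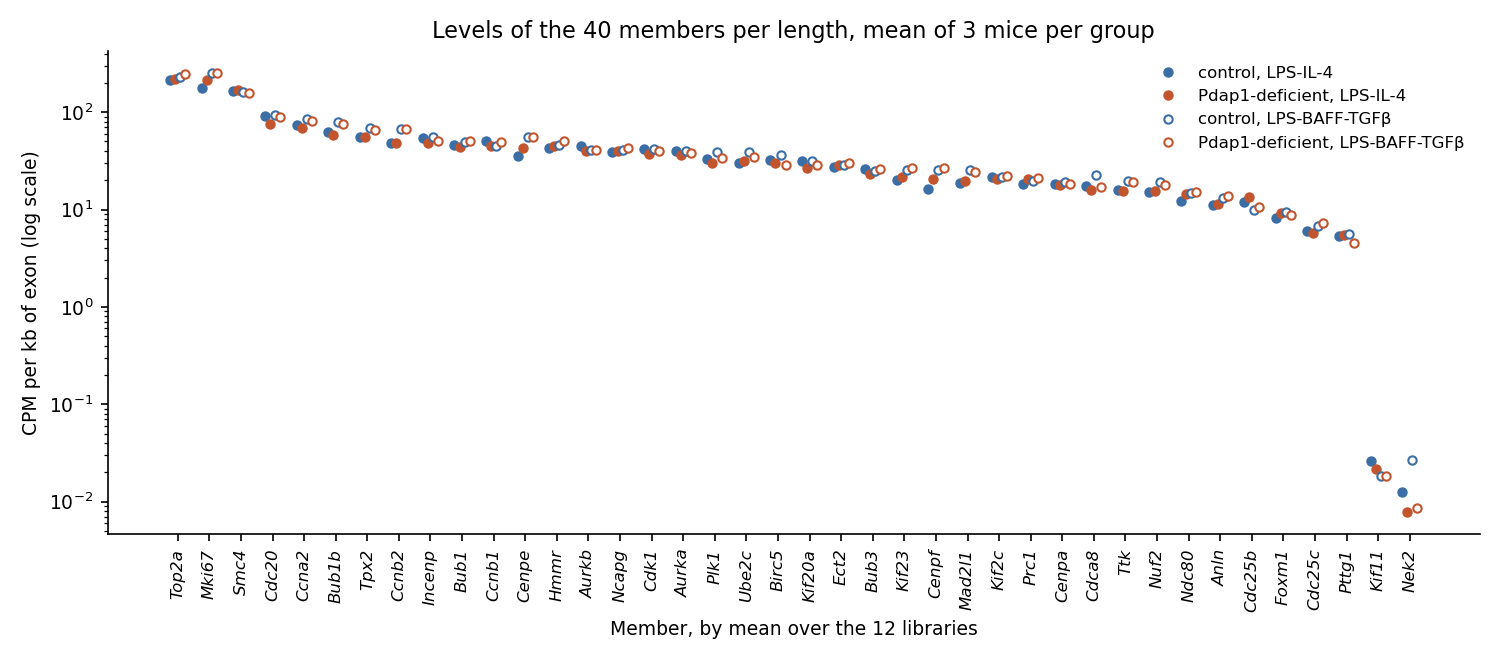
Level of each of the 40 members in CPM per kb of exon (log scale), as the mean of 3 mice in each of the 4 groups; filled symbols are LPS-IL-4 and open symbols LPS-BAFF-TGFβ, blue is control and orange Pdap1-deficient. *Top2a* and *Mki67* are highest, at 226 and 224 CPM per kb over all libraries, the groups of most members lie close together, and *Kif11* and *Nek2* lie far below the rest.

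Loss of Pdap1 changed no member past the threshold in LPS-IL-4 cultures. None of 38 members passed an adjusted p under 0.05 in edgeR, against 4.92% of the 15074 genes tested, and DESeq2 called 0 as well. At an unadjusted p under 0.05 there were 3 members, all higher in Pdap1-deficient cells, against 23.8% of all genes. The median log2 fold change of the members (Pdap1-deficient minus control) was -0.02, beside 0.02 for all genes, with 18 members above 0 and 20 below. The 95% confidence intervals of the 38 members lay between -0.60 and 0.58, so each excluded a change of 1 on the log2 scale in either direction.

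Of 6 genes of mitotic entry 5 had a log2 fold change below 0 and 1 above, with a median of -0.09, and none was called. *Cdk1* stood at 208, 210 and 206 CPM in control mice 1 to 3 and at 208, 155 and 187 CPM in Pdap1-deficient mice 1 to 3. *Ccnb1*, the main cyclin B, was at 221, 211 and 206 CPM in control and 216, 140 and 213 CPM in Pdap1-deficient mice. *Ccnb2* was at 75.9, 69.7 and 75.6 CPM and at 86.0, 62.4 and 71.3 CPM. In these 3 genes mouse 2 of the Pdap1-deficient group was the lowest library and the groups overlapped. Their log2 fold changes were -0.19, -0.17 and -0.02, and those of *Ccna2*, *Cdc25b* and *Cdc25c* were -0.12, 0.14 and -0.05.

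All 7 tested members among the mitotic kinases and the chromosomal passenger complex had a log2 fold change below 0 (median -0.15), and none passed the test. The polo kinase gene *Plk1* stood at 68.9, 63.2 and 85.6 CPM in control and at 72.3, 64.7 and 60.1 CPM in Pdap1-deficient mice. *Aurkb*, the kinase of the passenger complex, was at 130, 128 and 136 CPM and at 130, 102 and 118 CPM. *Birc5* (survivin, its chromosome-targeting subunit) was at 101, 111 and 120 CPM and at 119, 90.01 and 97.9 CPM. The groups overlapped in all 3 genes. Of this role, *Incenp*, the scaffold of the complex, had groups that did not overlap, with a log2 fold change of -0.19 ± 0.10 and an adjusted p of 0.26.

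Among checkpoint and APC/C genes *Cdc20* had the lowest value of all members. It stood at 172, 164 and 174 CPM in control and at 172, 113 and 139 CPM in Pdap1-deficient mice, with a log2 fold change of -0.28 ± 0.15 and an adjusted p of 0.28. *Bub1b*, the checkpoint kinase-like protein BubR1, was at 265, 262 and 269 CPM and at 286, 209 and 249 CPM. *Ube2c*, the E2 enzyme of APC/C, was at 76.8, 76.7 and 81.7 CPM and at 97.4, 64.9 and 82.3 CPM. In each of these genes control mice lay close together, Pdap1-deficient mice spread more widely, and the groups overlapped. The checkpoint genes *Bub1*, *Bub3* and *Mad2l1* had log2 fold changes of -0.07, -0.16 and 0.05, and *Pttg1* 0.04.

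Of 5 centromere and kinetochore genes 4 had a log2 fold change above 0, and none was called. *Cenpf*, a large protein of the outer kinetochore, had the highest value of all members, at 257, 263 and 228 CPM in control and 319, 308 and 331 CPM in Pdap1-deficient mice, a log2 fold change of 0.35 ± 0.10 with an adjusted p of 0.079, which an offset for exon length and GC content took to 0.14 (adjusted p = 0.47). *Cenpe*, the kinesin that carries chromosomes to the spindle equator, was at 314, 323 and 278 CPM and at 370, 332 and 396 CPM (log2 fold change 0.26 ± 0.11, adjusted p = 0.21). Neither pair of groups overlapped, and neither difference passed the threshold. The microtubule-binding *Ndc80* did not overlap either, at 0.23 ± 0.10 (adjusted p = 0.20), while its partner *Nuf2* and the centromeric histone *Cenpa* overlapped, at 0.06 and -0.06.

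The remaining roles showed no call. For chromosome structure, *Top2a* was at 1960, 1980 and 1814 CPM in control and 2157, 1640 and 2114 CPM in Pdap1-deficient mice. *Mki67* was at 1825, 1868 and 1665 CPM and at 2222, 1961 and 2222 CPM, groups that did not overlap, with a log2 fold change of 0.25 ± 0.12 and an adjusted p of 0.24. The condensin subunits *Ncapg* and *Smc4* had log2 fold changes of 0.02 and 0.03. In cytokinesis, *Kif20a*, the central spindle kinesin, was at 134, 133 and 140 CPM and at 123, 102 and 124 CPM, lower in each Pdap1-deficient mouse (log2 fold change -0.24 ± 0.11, adjusted p = 0.22). *Prc1*, the bundler of central spindle microtubules, was at 151, 148 and 147 CPM and at 182, 148 and 178 CPM. *Kif23*, *Anln* and *Ect2*, which act in the central spindle, the contractile ring and its activation, had log2 fold changes of 0.11, 0.03 and 0.06. The spindle proteins *Kif2c*, *Tpx2* and *Hmmr* lay at -0.08, -0.03 and 0.08. *Foxm1* was at 47.2, 46.6 and 48.5 CPM in control and at 52.2, 57.8 and 49.3 CPM in Pdap1-deficient mice (log2 fold change 0.15 ± 0.10, adjusted p = 0.38). Over all roles the genotypes were fully separated for 6 members that were higher and 2 that were lower without Pdap1, where 31.7% of all genes had groups that did not overlap in either direction.

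The comparisons of genotypes and of stimulations share libraries. These values rested in part on Pdap1-deficient mouse 2, whose library was the lowest of its group for 31 of 38 members. It is the mouse with the highest myeloid and T cell marker sums. The part of those cells in the result was not tested. Without that library 6 members were called higher in LPS-IL-4 cultures, where 5.09% of 15226 genes were called higher. They were *Cenpf* (log2 fold change 0.39), *Cenpe* (0.33), *Mki67* (0.32), *Ndc80* and *Hmmr* (0.29 each) and *Prc1* (0.28). The median over the 38 members was then 0.075. With the offset added and that library left out, 4 members were called higher, where 4.98% of genes were, and the median was -0.02. *Cenpf* was then at 0.21, *Mki67* at 0.21 and *Cenpe* at 0.19, and the other was *Ube2c* (0.27), which was not among the 6. Without Pdap1-deficient mouse 1 in place of mouse 2, 1 member was called, *Cdc20*, at -0.46 ± 0.12 (adjusted p = 0.044), where 5.32% of 15482 genes were called lower, and the median was -0.13. *Cdc20* was at -0.12 without mouse 2.

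In LPS-BAFF-TGFβ cultures no member was called between genotypes either. Of 38 members 0 passed in edgeR and in DESeq2, where 0.462% of 14079 genes passed in edgeR. At an unadjusted p under 0.05 there were 2 members, both lower, against 10.6% of all genes. The median of the members was -0.02, beside 0.01 for all genes, and the intervals lay between -0.79 and 0.57.

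The lowest value belonged to *Cdca8* (borealin), a passenger complex subunit, with a log2 fold change of -0.41 ± 0.14 and an adjusted p of 0.35. Its groups did not overlap, at 139, 101 and 113 CPM in control and 95.6, 81.9 and 86.1 CPM in Pdap1-deficient mice. *Birc5*, a second subunit, was at 138, 108 and 122 CPM and at 104, 86.9 and 101 CPM (-0.33 ± 0.13, adjusted p = 0.43), and *Incenp*, another, was also lower in every Pdap1-deficient mouse. These 3 subunits were the members whose groups did not overlap, where 18.6% of all genes did not overlap. Each of the 3 was highest in the deep library of control mouse 1. The log2 fold change of *Cdca8* ran from -0.51 without control mouse 2 to -0.28 without control mouse 1. *Aurkb*, the kinase of that complex, was at 117, 125 and 119 CPM and at 120, 120 and 123 CPM, which overlapped (log2 fold change 0.02).

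Among the other members the groups of both genotypes overlapped. *Cdk1* was at 224, 205 and 186 CPM in control and at 200, 171 and 214 CPM in Pdap1-deficient mice. *Ccnb1*, at 156, 216 and 201 CPM and at 214, 183 and 231 CPM, had the highest log2 fold change, 0.14 ± 0.15 (adjusted p = 0.73), which ran from 0.0099 without control mouse 1 to 0.24 without control mouse 2. *Plk1* was at 111, 68.5 and 78.3 CPM and at 85.8, 74.5 and 62.6 CPM. The single highest value of *Plk1* and the lowest of *Ccnb1* came from the deep library of control mouse 1. *Cdc20* was at 183, 171 and 176 CPM and at 188, 153 and 161 CPM. *Ube2c* was at 120, 84.1 and 102 CPM and at 110, 77.8 and 82.2 CPM. *Kif20a* was at 134, 141 and 133 CPM and at 126, 115 and 134 CPM. All of these groups overlapped. *Prc1* was at 158, 166 and 158 CPM and at 179, 154 and 183 CPM. *Top2a* was at 1615, 2347 and 2214 CPM and at 2213, 1993 and 2396 CPM. *Foxm1* was at 56.2, 51.7 and 55.0 CPM and at 55.4, 49.2 and 46.3 CPM. They overlapped as well.

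Whether the genotype difference itself depended on the stimulation was tested by the interaction of genotype and stimulation in a fit of all 12 libraries. No member passed, and neither did any other of the 15794 genes tested in edgeR (0%). No member had an unadjusted p under 0.05, where 4.78% of all genes did. DESeq2 called 5 genes higher and 1 lower, none of them a member. The values ran from -0.38 ± 0.26 for *Pttg1* to 0.30 ± 0.23 for *Ccnb1* (adjusted p = 0.98 each), with intervals between -0.94 and 0.79. For *Cenpf* and *Cenpe* it was -0.26 ± 0.14 and -0.26 ± 0.17, and each of the 5 centromere and kinetochore genes was below 0. This edgeR fit took the 12 libraries as independent, although by the description of the series both cultures come from the same mice. With the mouse as a block no member and no other gene passed either. With 3 mice per group the interval of a member reached 0.26 to 0.57 on either side, which limits what could be seen.

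**Figure D2:**
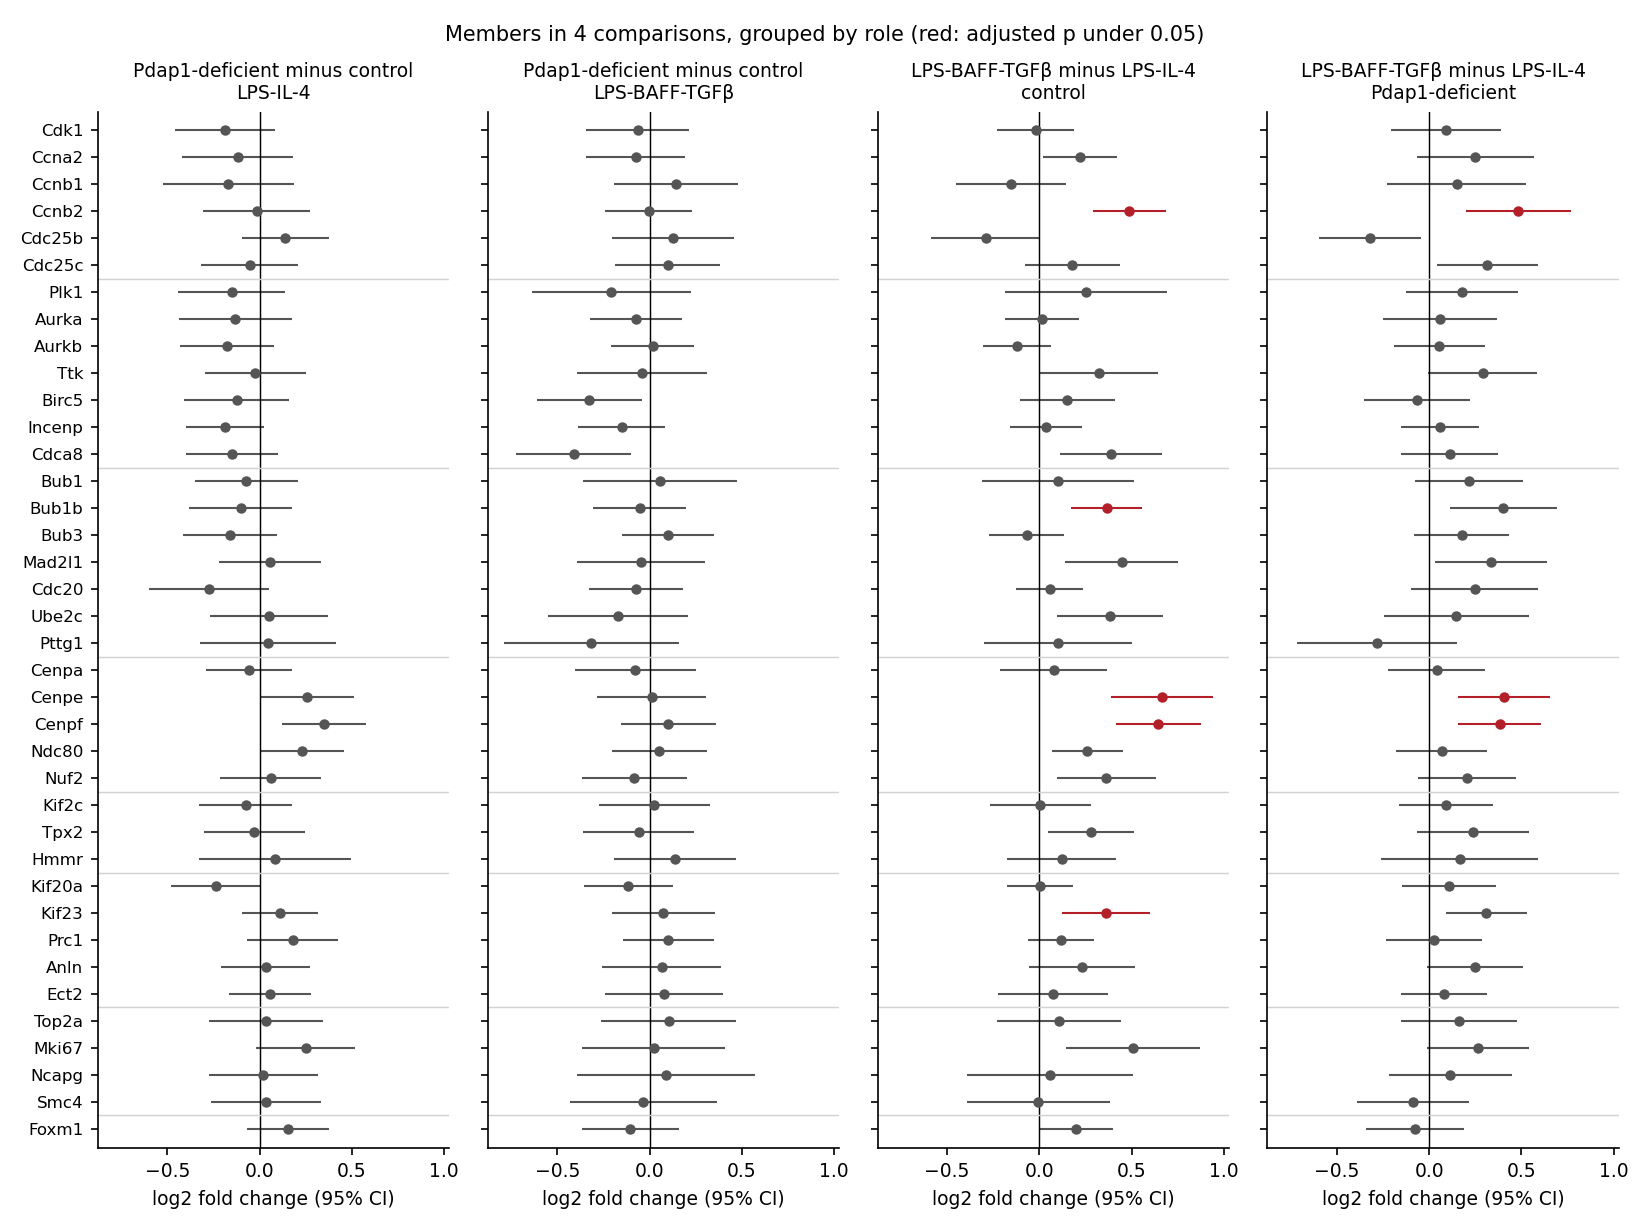
Log2 fold change of each of the 38 tested members with its 95% confidence interval (edgeR) in the genotype comparison of each stimulation and the stimulation comparison of each genotype; members are ordered by role, and red marks an adjusted p under 0.05. No member is red in the genotype comparisons, while 5 members in control and 3 in Pdap1-deficient cells are red and higher with LPS-BAFF-TGFβ.

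Between stimulations the members were on the whole higher with LPS-BAFF-TGFβ. In control cells 32 of 38 members had a log2 fold change above 0 (LPS-BAFF-TGFβ minus LPS-IL-4), with a median of 0.14 beside 0.03 for all 14882 genes tested. The test called 5 members higher, where 9.99% of all genes were called higher, and 0 lower, where 9.33% of all genes were called lower. The called share of members is thus close to the background, and each was below 1 on the log2 scale. At an unadjusted p under 0.05 there were 14 members, all higher, against 31.5% of all genes in either direction.

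*Cenpf* (chromosome 1, 189640606 to 189688086) rose most clearly. It was at 257, 263 and 228 CPM with LPS-IL-4 and at 365, 383 and 418 CPM with LPS-BAFF-TGFβ, a log2 fold change of 0.64 ± 0.10 (adjusted p = 0.0029). *Cenpe* (chromosome 3, 135212537 to 135273611) had the highest log2 fold change, 0.66 ± 0.12 (adjusted p = 0.0059), and went from 314, 323 and 278 CPM to 415, 518 and 515 CPM. *Ccnb2* (chromosome 9, 70407692 to 70421547) rose from 75.9, 69.7 and 75.6 CPM to 110, 101 and 97.6 CPM, by 0.49 ± 0.09 (adjusted p = 0.0054). In each of these genes all 3 control mice were higher with LPS-BAFF-TGFβ and the groups did not overlap. *Bub1b* (chromosome 2, 118598211 to 118641591) rose from 265, 262 and 269 CPM to 349, 354 and 319 CPM, by 0.36 ± 0.08 (adjusted p = 0.018). *Kif23* (chromosome 9, 61915905 to 61946774), the kinesin of centralspindlin, rose from 160, 155 and 158 CPM to 177, 216 and 215 CPM, by 0.36 ± 0.10 (adjusted p = 0.044).

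Members that missed the threshold spanned both sides. *Mki67* was at 1945, 2645 and 3003 CPM with LPS-BAFF-TGFβ, all above its LPS-IL-4 values, with a log2 fold change of 0.51 ± 0.16 and an adjusted p of 0.060. *Mad2l1* had 0.45 (adjusted p = 0.051), *Cdca8* 0.39 (0.057), *Ube2c* 0.38 (0.071) and *Nuf2* 0.36 (0.067). *Cdk1*, *Aurka*, *Kif20a*, *Kif2c* and *Smc4* lay between -0.02 and 0.01. The lowest member was *Cdc25b*, a phosphatase that activates CDK1, at 44.4, 43.9 and 46.4 CPM with LPS-IL-4 and 42.5, 30.6 and 36.3 CPM with LPS-BAFF-TGFβ, a log2 fold change of -0.29 ± 0.13 with an adjusted p of 0.16. In all, 16 members were higher and 2 lower in every library of LPS-BAFF-TGFβ, where 37.8% of all genes had groups that did not overlap.

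The deep library of control mouse 1 weighed on this count, since it was the lowest of its group for 24 of 38 members. Without it 20 members were called higher, where 15.8% of 15299 genes were, and 1 lower, where 15.9% were. The median of the members was then 0.24 beside 0.00 for all genes. *Cenpe* was at 0.77 ± 0.07, *Cenpf* at 0.69 ± 0.08, *Mki67* at 0.67 ± 0.08 and *Mad2l1* at 0.58 ± 0.07, and the member called lower was *Cdc25b* (-0.41 ± 0.11, adjusted p = 0.0064). Why that library differs from the others of its group was not tested. With the mouse as a block, the paired fit, 3 members were called higher in control cells, namely *Cenpf*, *Cenpe* and *Ccnb2* (adjusted p = 0.017, 0.020 and 0.026), where 6.99% of all genes were called higher.

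In Pdap1-deficient cells the direction was the same for most members. Above 0 were 33 of 38, with a median of 0.15 beside 0.00 for all 14617 genes tested. The test called 3 members higher, where 5.57% of all genes were called higher, and 0 lower, where 5.89% were called lower, and at an unadjusted p under 0.05 there were 7 members higher and 1 lower, against 23.5% of all genes in either direction. *Ccnb2* rose from 86.0, 62.4 and 71.3 CPM with LPS-IL-4 to 104, 97.8 and 105 CPM with LPS-BAFF-TGFβ, a log2 fold change of 0.48 ± 0.13 (adjusted p = 0.037). *Cenpf* rose from 319, 308 and 331 CPM to 402, 392 and 451 CPM, by 0.38 ± 0.10 (adjusted p = 0.038). *Cenpe* rose from 370, 332 and 396 CPM to 473, 448 and 531 CPM, by 0.41 ± 0.11 (adjusted p = 0.046). Each of these groups stood apart. With these 3 genes included, 9 members were higher and 1 was lower in every LPS-BAFF-TGFβ library, where 29% of all genes had groups that did not overlap.

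*Bub1b* and *Kif23* missed the threshold in Pdap1-deficient cells. *Bub1b* was at 344, 295 and 342 CPM with LPS-BAFF-TGFβ, a log2 fold change of 0.40 ± 0.13 with an adjusted p of 0.082, and *Kif23* had 0.31 ± 0.10 with an adjusted p of 0.078. Since the interaction was 0.04 for *Bub1b* and -0.05 for *Kif23*, no difference between genotypes in this response was shown. *Mki67* was at 2717, 2280 and 2677 CPM (0.26 ± 0.12, adjusted p = 0.24). *Cdc25b* was again lowest, at 47.1, 55.9 and 46.1 CPM with LPS-IL-4 and 43.1, 39.1 and 37.2 CPM with LPS-BAFF-TGFβ (-0.32 ± 0.12, adjusted p = 0.15).

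The cultures of a Pdap1-deficient mouse deviated together, and with the mouse as a block in this paired comparison 14 members were called higher, where 12.8% of 14617 genes were, and 1 lower, where 13.5% were. *Cenpe* was at 0.40 ± 0.06, *Cenpf* at 0.38 ± 0.06, *Bub1b* at 0.41 ± 0.07 and *Ccnb2* at 0.49 ± 0.09 (adjusted p of 0.000366 or less). *Kif23*, *Mad2l1*, *Mki67*, *Ccna2*, *Tpx2*, *Ttk*, *Cdc20*, *Bub1*, *Anln* and *Cdc25c* were the other 10, between 0.22 and 0.33. The member called lower was *Cdc25b* (-0.31 ± 0.10, adjusted p = 0.025). Leaving out both cultures of Pdap1-deficient mouse 2, without the block, 6 members were called higher, *Cenpf*, *Cenpe*, *Bub1b*, *Kif23*, *Ccnb2* and *Mki67*, where 8.21% of 14515 genes were.

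Within mice, paired by the labelled numbers, the mean difference was above 0 in each. Averaged over the 38 members, LPS-BAFF-TGFβ minus LPS-IL-4 was 0.09, 0.19 and 0.23 log2 units in control mice 1 to 3 and 0.09, 0.20 and 0.15 in Pdap1-deficient mice 1 to 3. Between 24 and 33 of 38 members were higher with LPS-BAFF-TGFβ in a mouse. In all 6 mice 15 members were higher, and 1 member, *Cdc25b*, was lower in all 6.

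**Figure D3:**
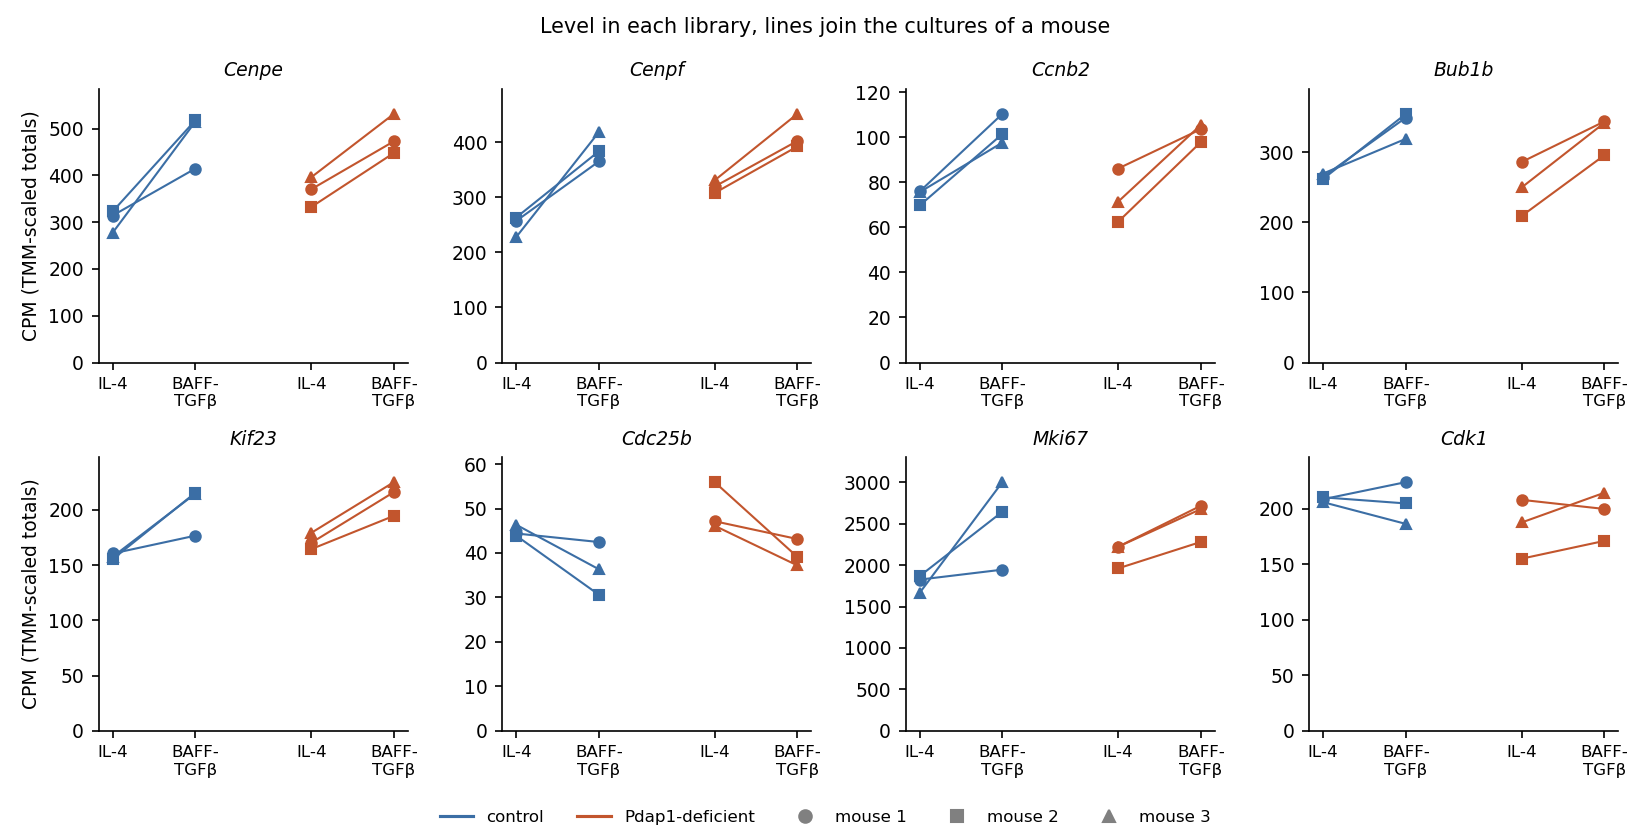
CPM of 8 members in each library, with lines joining both cultures of a mouse (blue control, orange Pdap1-deficient, symbol by mouse number); the axis of each panel starts at 0. *Cenpe*, *Cenpf*, *Ccnb2*, *Bub1b*, *Kif23* and *Mki67* go up in all 6 mice, *Cdc25b* goes down in all 6, and *Cdk1* goes up in 3 and down in 3.

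Pdap1-deficient mouse 2 stood apart over most members. As a description with no test, the mean over the 38 members of the log2 CPM relative to the 12-library mean was -0.07, -0.07 and -0.08 in control LPS-IL-4 cultures and 0.04, -0.25 and -0.04 in Pdap1-deficient ones. With LPS-BAFF-TGFβ it was 0.02, 0.12 and 0.14 in control and 0.13, -0.05 and 0.12 in Pdap1-deficient mice. The genotypes overlapped in both stimulations, and mouse 2 was the lowest Pdap1-deficient mouse in each, being the lowest of 3 for 31 of 38 members in both. In the deep control mouse 1 library the roles went apart, as it was lowest of its group in chromosome structure (-0.36) and highest in mitotic kinases and the passenger complex (0.22). Pdap1-deficient mouse 2 was the lowest of its group in every role in both stimulations except *Foxm1*, the centromere genes included. For *Foxm1* it was the highest of its group with LPS-IL-4, at 57.8 CPM.

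**Figure D4:**
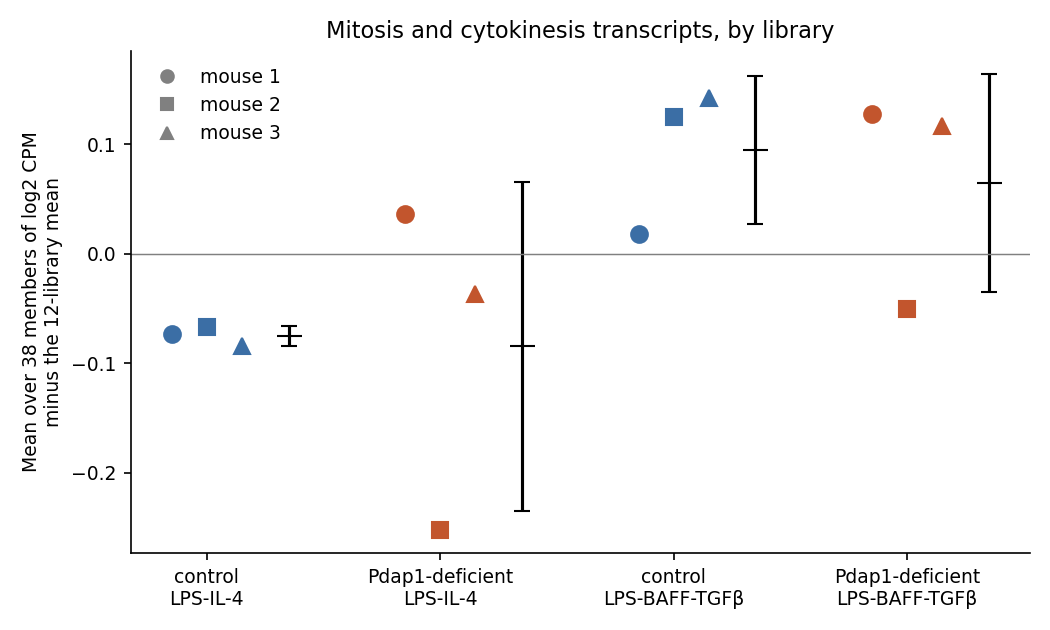
Mean over the 38 tested members of the log2 CPM (prior count 2) minus each member's mean over the 12 libraries, 1 point per library (blue control, orange Pdap1-deficient, symbol by mouse number), with the mean and SD of the 3 mice as the black bar. Pdap1-deficient mouse 2 is lowest in its group with -0.25 in LPS-IL-4 and -0.05 in LPS-BAFF-TGFβ cultures, and the genotypes overlap in both stimulations.

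Differences between members went along with gene length. The members were longer than other genes, with a median exon length of 4926.5 bases against 3477 for all genes tested. Across the 38 members, which share their libraries and are not independent, the genotype log2 fold change in LPS-IL-4 cultures had a Pearson r of 0.59 with log2 exon length and of -0.40 with GC content, beside 0.06 and -0.15 across all genes. In LPS-BAFF-TGFβ cultures these were 0.45 and -0.45, beside 0.23 and -0.20. *Cenpf*, the highest member in LPS-IL-4 cultures, was also the longest with 15433 bases of exon, and *Cdc20*, the lowest, had 1868. An offset for length and GC content took the LPS-IL-4 genotype median of the members from -0.02 to -0.13 and that of all genes from 0.02 to -0.05, with 0 members called. With that offset 11 members were called higher and 1 lower between stimulations in control cells, where 11.6% of all genes were higher and 15.1% lower. In Pdap1-deficient cells it left 0 members called by edgeR, where 5.7% of all genes were higher and 6.26% lower.

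Other mitosis genes, a second list of 121 genes covered spindle, kinetochore, APC/C, cohesin and condensin genes and the MuvB and E2F factors. In the LPS-IL-4 genotype comparison 120 were tested and 2 called, *E2f2* (0.57 ± 0.12, adjusted p = 0.029) and the MuvB partner *Mybl2* (-0.60 ± 0.09, adjusted p = 0.0081), with a median of 0.01, where 4.92% of all genes were called. Between stimulations 10 of the 120 were higher and 1 lower in control cells, where 9.99% and 9.33% of all genes were, with a median of 0.14. Among the 10 were *Cdca2* (0.87 ± 0.10), *Tfdp2* (0.95 ± 0.13), *Sgo2a* (0.72 ± 0.11) and *Aspm* (0.56 ± 0.12). In Pdap1-deficient cells 5 were higher and 1 lower, where 5.57% and 5.89% of all genes were, with a median of 0.11.

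DNA replication genes, 47 in number, had a median log2 fold change between genotypes of -0.13 in LPS-IL-4 cultures, beside 0.02 for all genes. There 44 were below 0 and 1 was called, *Dut* (-0.51 ± 0.12, adjusted p = 0.046), where 4.92% of all genes were. In LPS-BAFF-TGFβ cultures the median was -0.12, beside 0.01 for all genes, with 41 below 0. Of 15 genes of quiescence and CDK inhibitors, 13 were tested in LPS-IL-4 cultures, with a median of 0.41 beside 0.02 for all genes. The test called 1 of them, *Btg2* (0.67 ± 0.16, adjusted p = 0.046), where 4.92% of all genes were called. In LPS-BAFF-TGFβ cultures 12 of these genes were tested between genotypes, with a median of -0.01 beside 0.01 for all genes. There 6 were above 0, 6 below and 0 called, where 0.462% of all genes were called. Between stimulations 4 of the quiescence genes were higher and 2 lower in control cells, where 9.99% and 9.33% of all genes were. *Cdkn1b*, which encodes the CDK inhibitor p27, went from a mean of 43.6 to 98.2 CPM (1.18 ± 0.09, adjusted p = 7.97e-05), and *Ccng2* from 13.6 to 39.8 CPM. The others called higher were *Btg1* (0.54 ± 0.10) and *Foxo1* (0.53 ± 0.12). Those called lower were *Cdkn1a*, another CDK inhibitor gene (-1.03 ± 0.25, adjusted p = 0.024), and *Klf2* (-1.46 ± 0.37, adjusted p = 0.034). Of 5 plasmablast genes tested between genotypes in LPS-IL-4 cultures, 4 were above 0 and 1 below. The test called 1, the regulator *Prdm1*, higher without Pdap1 (1.82 ± 0.16, adjusted p = 0.000323), where 4.92% of all genes were called. *Sdc1* was at 6.41, 8.98 and 9.88 CPM in control and at 5.82, 3.94 and 5.28 CPM in Pdap1-deficient mice. Of 5 plasmablast genes tested between stimulations in control cells, 4 were lower with LPS-BAFF-TGFβ, among them *Xbp1* (-1.56 ± 0.13) and *Prdm1* (-1.11 ± 0.18). The other 1 was higher, *Irf4* (0.35 ± 0.09). Over all genes, 9.33% were called lower and 9.99% higher.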

How the data were processed

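RNA was measured in 12 libraries, 3 mice for each of 2 genotypes and 2 stimulations. The authors deposited raw counts per Ensembl gene (GRCm38). Per the submitters' processing notes, reads were processed with Trim Galore 0.6.1, STAR 2.6, HTSeq 0.9.1 and DESeq2. The annotation release and strand setting are not given in the sources used here, and kit names differ between the labels (mRNA) and the study (total RNA with rRNA depletion). The authors' normalized table, which holds the same counts scaled per library, was not used. Genes were named from GENCODE M21, matching all 272 listed symbols. Groups came from the labels, and the full name of the Cre allele is not reported here.

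Each comparison was fitted on the whole table with edgeR 4.0.16 in R 4.3.3 (filterByExpr, TMM, robust quasi-likelihood F test), with Benjamini-Hochberg adjustment over all genes tested and a threshold of 0.05. CPM used TMM-scaled totals over the 12 libraries, and log2 CPM a prior count of 2. Biological variation between mice had a median coefficient of 19.1% to 24.0% over the fits, and libraries held between 4579793 and 69500640 counts. The steps were tested on simulated data. No library was a copy of another in its group. Alternatives tried for the fits were DESeq2 1.42.0 (Wald test), its size factors in edgeR, no filter, and at least 10 counts in every library. Others were each library left out, a replicate block, all libraries in one fit, thinning, and an offset from exon length and GC content. For levels only, total counts and a prior count of 0.5 were tried. Combinations of left-out libraries, alone or with the offset, were chosen after seeing the data.

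Mouse numbers were taken to pair the stimulations, because by the series' description they name the same animal. Deviations from the group mean correlated within Pdap1-deficient mice (r = 0.61, 0.70 and 0.63) but not within all control mice (-0.31, 0.55 and -0.25), where numbers 1 and 3 correlated better crossed (0.40 and 0.62). They may be crossed in one stimulation. No crossed fit was made, so the paired fit of control cells is less certain. The members and lists were chosen with earlier results of these data known. All members are accounted for, with full statistics for members past the threshold (12 at most, by adjusted p) and the highest and lowest. Values in every library are given for key members fixed by name. At most 8 called genes of each other list are named per comparison, by smallest adjusted p.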

Additional observations from a re-analysis of the deposited data

How the results depend on the processing

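With 3 mice per group, a log2 fold change of a member had a 95% interval of about 0.27 to 0.30 on either side in comparisons of 2 groups (medians) and 0.38 for the interaction, which limits what could be seen. In any alternative, no member called in the main fits changed direction, nor did the highest and lowest member of a comparison. The direction of the other members under the alternatives is not given here. Between genotypes no member was called in LPS-BAFF-TGFβ cultures or by the interaction under any alternative. With LPS-IL-4, leaving out libraries gave 0 to 6 members higher and 0 to 1 lower. Over all genes, leaving out a library gave 58 to 936 higher and 11 to 823 lower. The medians of the members were -0.13 to 0.075, both ends set by Pdap1-deficient mouse 1 or 2. The offset for length and GC content gave a median of -0.13, and with the replicate block -0.14. Without Pdap1-deficient mouse 2 the offset gave 4 members higher (4.98% of all genes). For the stimulations in control cells 5 members were higher and 0 lower. The paired fit with the replicate block gave 3 higher (6.99% of all genes). All 12 libraries in one fit gave 8 higher (1569 of 15794 genes). The offset gave 11 higher and 1 lower (11.6% and 15.1% of all genes), and with the replicate block 10 higher (1489 of 14882). The offset without control mouse 1 in LPS-BAFF-TGFβ gave 15 higher and 1 lower (2277 and 3012 of 15299 genes). Leaving out libraries gave 3 to 20 higher and 0 to 1 lower, with medians of 0.13 to 0.24. Over all genes, 852 to 2424 were then higher and 756 to 2434 lower. In Pdap1-deficient cells 3 members were higher and 0 lower. No filter gave 1 higher (968 of 28509 genes). The replicate block gave 14 higher and 1 lower (12.8% and 13.5% of all genes). The offset gave 0 (5.7% and 6.26% of all genes), and with the replicate block 11 higher and 1 lower (1806 and 1993 of 14617). Leaving out libraries gave 0 to 6 higher (465 to 1192 genes), with medians of 0.047 to 0.25. There, leaving out mouse 2 in LPS-IL-4 gave 3, mouse 1 in LPS-IL-4 gave 1 and each of the other 4 libraries 0. Except for the construction of the fits (fewer libraries, a block), the cause of these shifts was not tested. *Cenpe*, *Cenpf* and *Ccnb2* kept their call in control cells under all 16 alternatives, *Bub1b* under 11 and *Kif23* under 7. In Pdap1-deficient cells *Ccnb2* kept it under 11, *Cenpf* under 9 and *Cenpe* under 8 of 16. Mean levels of the members per group moved by less than the spread between mice under each scaling.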
